A study of Mus musculus with 15 samples.

Results

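Mitosis genes encode the proteins that carry a cell through chromosome condensation, spindle assembly, separation of the chromosomes and division of the cell body. A list of 39 of them, listed by symbol for their known roles with no threshold on measured values, was followed in RNA sequencing of ear tissue from female mice aged 5 weeks. The list was chosen with earlier results of these data known, so its shares beside those of all tested genes are descriptive only. All 39 were found among the 48795 genes of each deposited count table, and all 39 were among the 14991 genes that passed the filter on low counts. The libraries came from a model in which phorbol 12-myristate 13-acetate (PMA), an irritant that activates protein kinase C, inflames the ear. The groups were PMA_1002 (6 libraries), PMA with innate defense regulator peptide 1002, a synthetic host defense peptide, PMA_ethanol (4 libraries), PMA with ethanol, and Control (5 libraries). The sources used here give no dose, no time after treatment, no strain and no account of what the Control ears received. Ethanol is absent from the PMA_1002 label, and an effect of the vehicle therefore cannot be told apart from one of the peptide. Whether each library is 1 animal is not stated, and p-values therefore reflect only the variation among these libraries, and that variation may be technical.

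Entry into mitosis is driven by the kinase CDK1 bound to cyclins A and B, and exit by the anaphase-promoting complex, which marks cyclin B and securin for destruction. In skin the dividing cells are mainly basal keratinocytes and, while hair grows, the matrix cells of the hair follicle, and phorbol esters on mouse skin are a classical trigger of epidermal proliferation that starts after a delay. Most mitosis genes are transcribed from late S phase to mitosis under MuvB complexes, which bind the cell cycle genes homology region (CHR), and under NF-Y, which binds CCAAT boxes. In bulk tissue, a smaller share of dividing cells, whether from fewer of them or more of other cells, and less of these transcripts per dividing cell cannot be told apart.

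Most members with a known promoter window held both motifs, which the list did not use. RefSeq promoter windows on GRCm38.p6, from 250 bases before to 50 bases after a gene's start, were matched for 34 of the 39 members. The windows were searched on both strands for TTTGAA, the usual CHR sequence, for its form TTCGAA, and for CCAAT, and none of these strings contains another. TTTGAA was found for 25 of 34 members (73.5%), against 20.2% of the 27025 genes with a window. Within 50 bases of the start the shares were 67.6% of members and 5.72% of all genes. CCAAT was found for 73.5% of members and 41.1% of all genes, and both motifs together for 22 members (64.7%) and 7.97% of all genes, while 6 members held neither. TTCGAA was found for 3 members (8.82%), against 1.8% of all genes. The stretches below run from 110 bases before to 15 bases after the start, read 5′ to 3′ in the direction of the gene, with TTTGAA and CCAAT or their reverse complements in capitals. The first 4 belong to members that were lower in PMA_ethanol than in Control and higher in PMA_1002 than in PMA_ethanol, and the last 3 to members that passed the test in none of the comparisons.
Espl1 (chr15:102296183-102296307, plus strand): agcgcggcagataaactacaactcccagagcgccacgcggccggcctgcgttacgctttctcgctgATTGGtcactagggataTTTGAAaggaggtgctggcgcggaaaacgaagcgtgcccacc
Prc1 (chr7:80294341-80294465, plus strand): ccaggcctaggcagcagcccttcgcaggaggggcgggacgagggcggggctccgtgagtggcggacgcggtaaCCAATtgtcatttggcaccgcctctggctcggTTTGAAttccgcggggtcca
Cenpf (chr1:189688072-189688196, minus strand): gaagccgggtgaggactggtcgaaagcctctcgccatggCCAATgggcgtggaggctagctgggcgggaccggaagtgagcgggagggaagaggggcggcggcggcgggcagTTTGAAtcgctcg
Ccnb2 (chr9:70421540-70421664, minus strand): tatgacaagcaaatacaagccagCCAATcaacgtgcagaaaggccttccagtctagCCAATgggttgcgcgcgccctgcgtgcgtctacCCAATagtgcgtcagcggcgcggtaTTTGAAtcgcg
Cdk1 (chr10:69352898-69353022, minus strand): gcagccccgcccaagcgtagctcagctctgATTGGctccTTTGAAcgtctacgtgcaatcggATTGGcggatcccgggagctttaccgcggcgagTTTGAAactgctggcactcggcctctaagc
Cdc20 (chr4:118437329-118437453, minus strand): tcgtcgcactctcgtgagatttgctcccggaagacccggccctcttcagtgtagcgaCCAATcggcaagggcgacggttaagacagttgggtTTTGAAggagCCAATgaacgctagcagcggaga
Ube2c (chr2:164769819-164769943, plus strand): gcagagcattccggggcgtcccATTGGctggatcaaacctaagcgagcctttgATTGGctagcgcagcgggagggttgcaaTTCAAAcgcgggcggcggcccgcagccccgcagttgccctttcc
Among members with a window, all 5 that were not called in PMA_ethanol versus Control (Cdk1, Aurka, Cenpa, Cdc20 and Ube2c) held TTTGAA and CCAAT, and 17 of the 29 called lower held both. A match is a description of the letters and says nothing of which factor was bound.

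**Figure D1:**
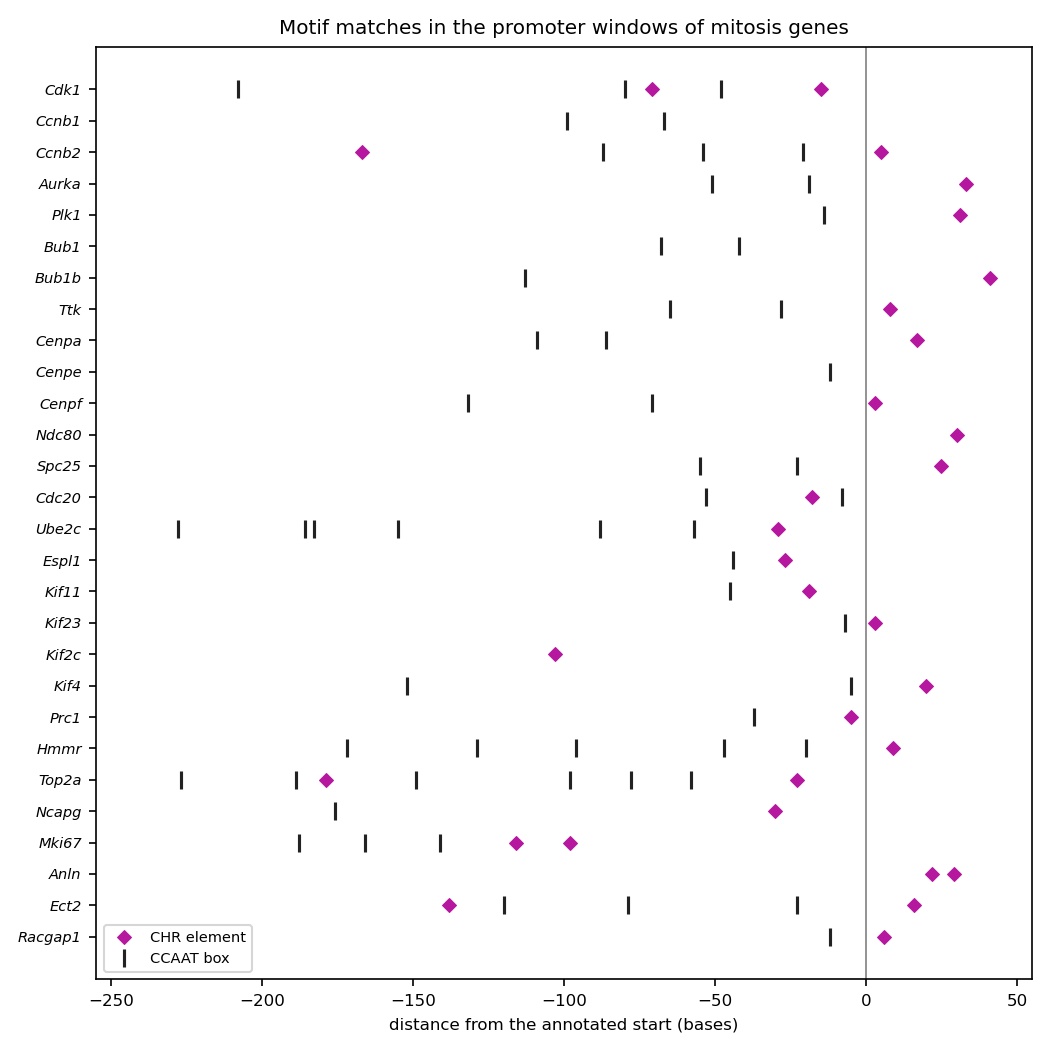
Positions of CHR (diamonds) and CCAAT (ticks) matches in the RefSeq promoter windows of the 28 members that held at least 1 match of either, in bases from the annotated start (grey line, x axis), with 1 row per gene in the order of the members' roles and 1 window per gene. Most CHR matches lie within 50 bases of the start, and most CCAAT matches lie upstream of it.

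The depth lay between 2656680 reads assigned to genes in PMA_ethanol library 3 and 28585995 in PMA_1002 library 5. Over the 39 members together this gave 784 reads in PMA_ethanol library 3 and 3126 to 16464 reads in the other libraries, so values in PMA_ethanol library 3 rest on few reads, down to 2 for Bub1. That library was the lowest of its group for 35 of 39 members, and PMA_ethanol library 2, the deepest of its group, was the highest for 27. Levels are given as CPM, read counts relative to the composition-scaled library size. For PMA_1002 the 3 values of a gene are the lowest, the median and the highest of its 6 libraries, and for PMA_ethanol and Control the values of libraries 1 to 4 and 1 to 5 are given in that order. A gene was called where its Benjamini-Hochberg adjusted p over all 14991 genes was under 0.05 in a two-sided edgeR quasi-likelihood test, and each fold change is given on the log2 scale with a standard error (SE). The 3 comparisons share libraries with each other, so their results are not independent.

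Mitosis transcripts were lower in PMA_ethanol ears than in Control ears for nearly the whole list. In PMA_ethanol versus Control, 34 of 39 members were called lower and 0 higher, where 35.9% of all tested genes were called lower, 32.5% higher and 68.4% in either direction. No member was higher at an unadjusted p under 0.05. DESeq2 called 33 members lower and 0 higher, and 5066 lower and 5095 higher of 14990 genes. All 39 fold changes were negative, with a median log2 fold change of -0.87 against -0.07 for all tested genes. Of the members 13 were lower by a fold of at least 2, a share not computed for all tested genes. All tested genes split into 4876 higher and 5382 lower here, and into 3682 higher and 7262 lower with upper-quartile scaling. In 28 members every PMA_ethanol library lay below every Control library, against 29.6% of all tested genes. The mean level of the list was 3.08 ± 0.41 log2 CPM in PMA_ethanol and 4.05 ± 0.12 in Control (SD, n = 4 and 5).

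With the peptide the mean level of the list lay between those of the other groups. In PMA_1002 versus PMA_ethanol, 9 of 39 members were called higher and 0 lower, where 17% of all tested genes were called higher and 18% lower, so the share of members called higher stood near the background. Of the 39 fold changes 38 were positive, with a median of 0.40 against 0.03 for all tested genes, and no member changed by a fold of 2. At an unadjusted p under 0.05, 18 members were higher and 1, Cenpa, was lower. The share of all tested genes at that threshold was not computed, so the 18 cannot be set against a background. DESeq2 called 8 members higher and 1 lower, and 2185 higher and 3105 lower of 14990 genes. The mean level of the list was 3.61 ± 0.19 log2 CPM in PMA_1002 (SD, n = 6), and all 6 of its libraries, between 3.32 and 3.83, lay below the lowest Control library at 3.91, while the highest PMA_ethanol library stood at 3.52. Leaving out 1 library at a time gave 8 to 19 members called higher. The highest count came without PMA_ethanol library 2, the deepest of its group, where 2339 of 15127 tested genes were called higher and 2469 lower. The members added there were Plk1, Cenpe, Kif11, Kif20a, Kif2c, Tpx2, Hmmr, Top2a, Ncaph and Mki67. A fit at equal hair follicle level, described below, gave 22, against 16.4% of all tested genes, while a replicate block lowered the count. The count was 15 with upper-quartile scaling and 19 with library sizes alone. All tested genes then split into 3432 higher and 2118 lower and into 3916 higher and 1897 lower, against 2553 higher and 2691 lower here.

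In PMA_1002 versus Control, 18 of 39 members were called lower and 0 higher, where 26.7% of all tested genes were called lower and 28.4% higher. No member was higher at an unadjusted p under 0.05. DESeq2 called 19 members lower and 0 higher, and 4039 lower and 4312 higher of 14990 genes. The median log2 fold change was -0.47, against -0.03 for all tested genes, and 36 of the 39 fold changes were negative. In 14 members every PMA_1002 library lay below every Control library, against 16.5% of all tested genes. The count called lower depended on the scaling and was 31 with upper-quartile scaling and with library sizes alone, where all tested genes split into 3079 higher and 5811 lower and into 3322 higher and 5283 lower, against 4252 higher and 3998 lower here.

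**Figure D2:**
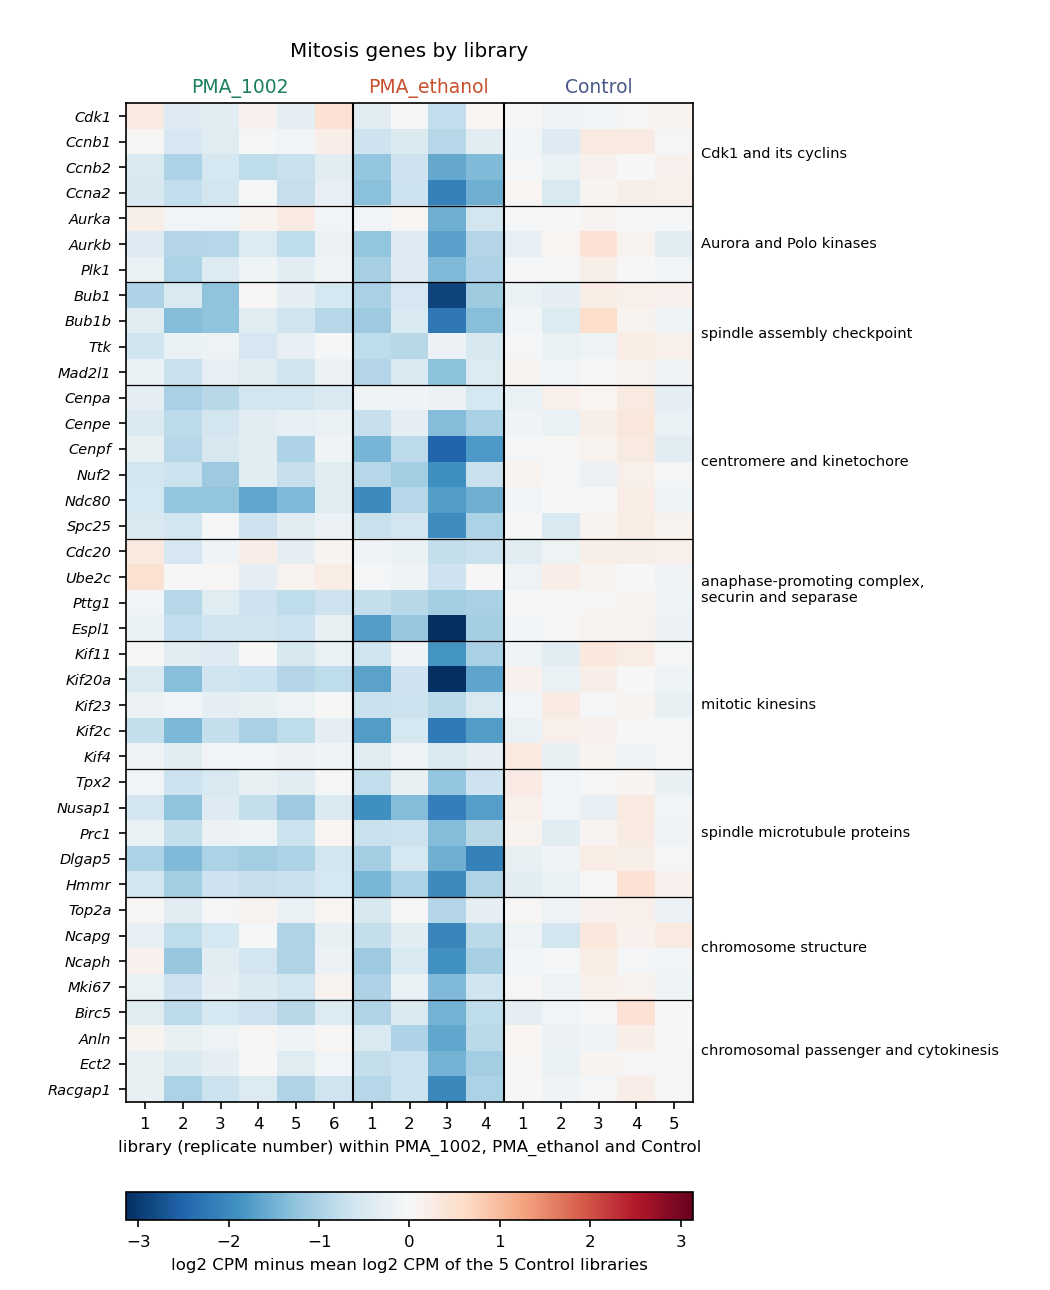
Log2 CPM of the 39 members (rows, grouped by role) in the 15 libraries (columns), as the difference from the mean of the 5 Control libraries (colour). PMA_ethanol library 3, the shallowest, is the lowest of its group for 35 members, and PMA_1002 library 2 is the lowest of its group for 28.

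**Figure D3:**
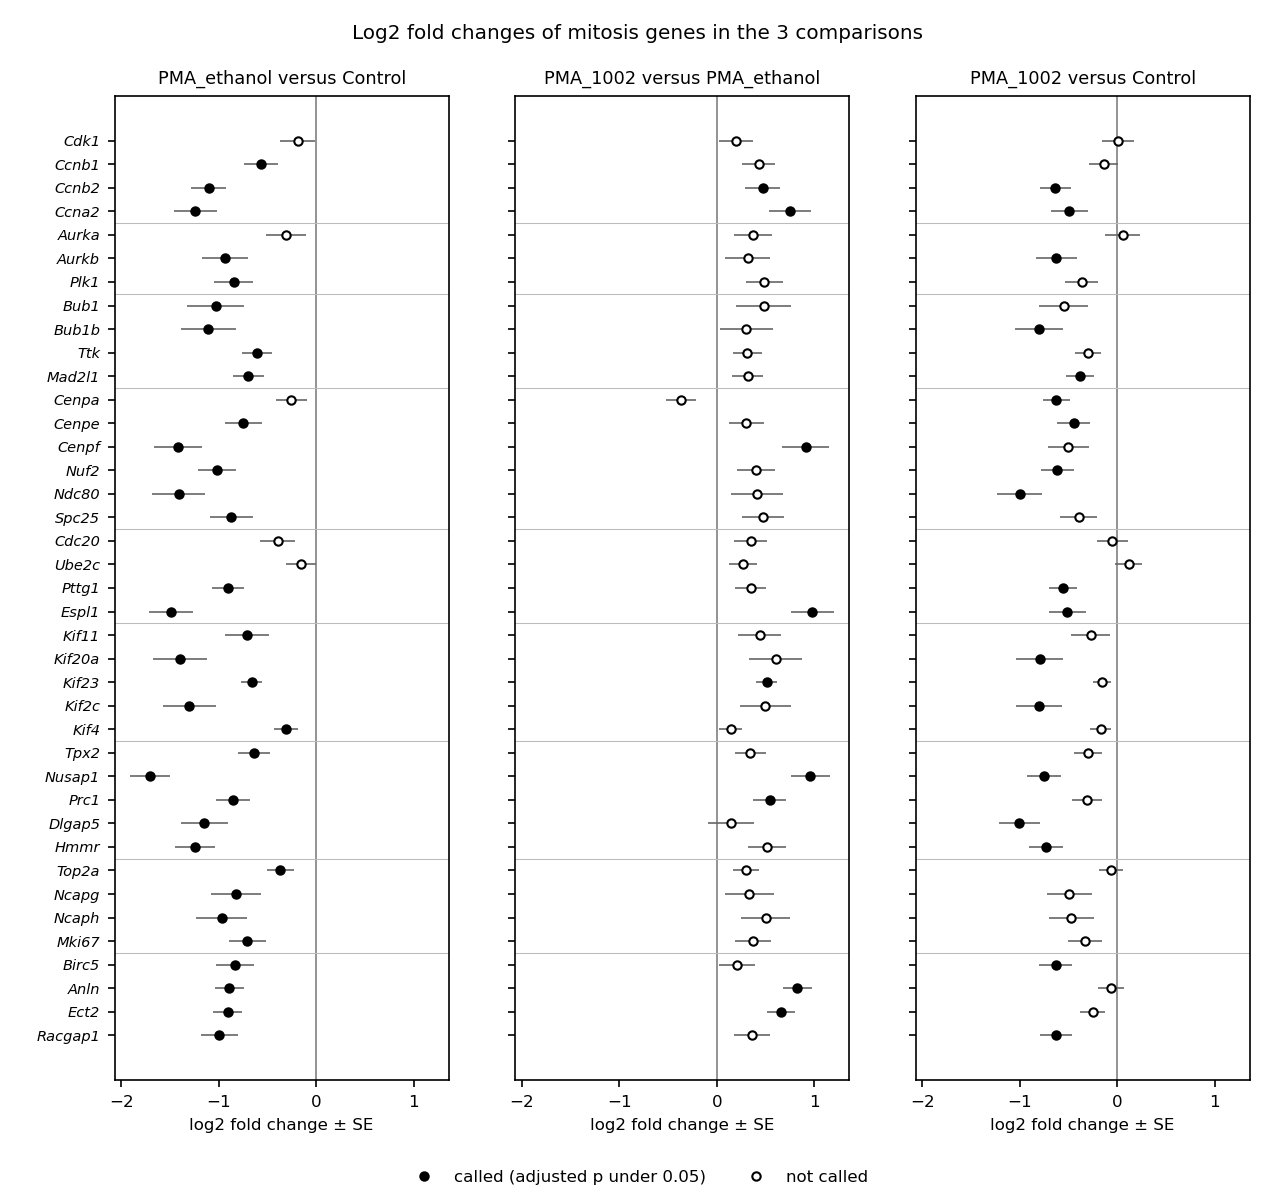
Log2 fold change with its SE (x axis) of each member (rows) in the 3 comparisons, filled where the edgeR adjusted p was under 0.05. All 39 values are negative in PMA_ethanol versus Control, 38 are positive in PMA_1002 versus PMA_ethanol with Cenpa the exception, and 36 are negative in PMA_1002 versus Control.

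Cdk1, the kinase that starts mitosis, passed the test in none of the comparisons, while its 3 cyclins were lower in PMA_ethanol than in Control. Cdk1 had 13.9, 17.7 and 24.9 CPM in PMA_1002, 14.4, 18.4, 10.8 and 19.02 CPM in PMA_ethanol and 18.9, 17.1, 17.3, 18.6 and 19.8 CPM in Control. PMA_ethanol library 3 was the lowest of all, and the 3 groups overlapped. Its log2 fold change was -0.19 (SE 0.18, edgeR adjusted p = 0.356) in PMA_ethanol versus Control, 0.20 (adjusted p = 0.408) in PMA_1002 versus PMA_ethanol and 0.004 (adjusted p = 0.988) in PMA_1002 versus Control. Ccnb1, the cyclin B1 that activates Cdk1 at the entry into mitosis, had 9.63, 13.2 and 15.9 CPM in PMA_1002, 8.77, 10.1, 7.47 and 11.01 CPM in PMA_ethanol and 13.01, 10.5, 16.8, 16.5 and 13.4 CPM in Control. PMA_ethanol was lower than Control, with 1 library above the lowest Control library, at -0.57 (SE 0.17, edgeR adjusted p = 0.00767) on the log2 scale, and PMA_1002 versus PMA_ethanol, at 0.43 (adjusted p = 0.0565), missed the threshold. Ccnb2, a second B-type cyclin, and Ccna2, the cyclin A that acts from S phase into early mitosis, passed the test in all 3 comparisons. Ccnb2 had 6.39, 8.19 and 9.998 CPM in PMA_1002, 5.48, 8.02, 4.15 and 4.86 CPM in PMA_ethanol and 12.1, 10.9, 13.9, 12.5 and 13.9 CPM in Control. All PMA libraries of either group lay below every Control library. Ccna2 had 15.8, 18.6 and 25.8 CPM in PMA_1002, 10.9, 17.00, 6.22 and 9.30 CPM in PMA_ethanol and 28.1, 19.3, 28.4, 30.5 and 30.2 CPM in Control, with PMA_ethanol apart from Control and overlapping PMA_1002 through its library 2. The log2 fold changes of Ccna2 were -1.24 (adjusted p = 9.74e-05), 0.75 (adjusted p = 0.0119) and -0.49 (adjusted p = 0.0369) for PMA_ethanol against Control, PMA_1002 against PMA_ethanol and PMA_1002 against Control. Those of Ccnb2 were -1.11 (adjusted p = 3.98e-05), 0.47 (adjusted p = 0.0489) and -0.64 (adjusted p = 0.00256) in the same order, and the call of Ccnb2 in PMA_1002 versus PMA_ethanol held in 8 of 24 alternatives. The call of Ccna2 in PMA_1002 versus Control held in 13 of 24 and was lost at equal hair follicle level, at -0.32 (adjusted p = 0.125).

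Of the 3 Aurora and Polo kinases, Aurkb and Plk1 were called lower in PMA_ethanol than in Control and Aurka was not. Aurka, which matures centrosomes and helps build the spindle, had 5.58, 5.99 and 7.13 CPM in PMA_1002, 5.59, 6.22, 2.07 and 4.005 CPM in PMA_ethanol and 5.72, 6.03, 6.34, 6.01 and 5.74 CPM in Control. The low value belongs to PMA_ethanol library 3, and the groups overlapped. Its log2 fold changes were -0.32 (adjusted p = 0.35) in PMA_ethanol versus Control, 0.37 (adjusted p = 0.158) in PMA_1002 versus PMA_ethanol and 0.05 (adjusted p = 0.826) in PMA_1002 versus Control. Aurkb, the kinase of the chromosomal passenger complex, which corrects faulty attachments, had 5.68, 7.10 and 9.49 CPM in PMA_1002, 4.60, 8.15, 3.32 and 5.72 CPM in PMA_ethanol and 9.02, 11.2, 14.8, 11.6 and 8.36 CPM in Control. Every PMA_ethanol library lay below Control, at -0.94 (SE 0.24, edgeR adjusted p = 0.00197) on the log2 scale, and PMA_1002 was also lower than Control, at -0.63 (adjusted p = 0.0166). The difference between PMA_1002 and PMA_ethanol was 0.31 (adjusted p = 0.309) for Aurkb. Plk1, the Polo-like kinase that acts at centrosomes, kinetochores and the midzone, had 4.87, 8.05 and 8.86 CPM in PMA_1002, 4.71, 7.32, 3.73 and 5.01 CPM in PMA_ethanol and 9.37, 9.30, 11.2, 9.86 and 9.18 CPM in Control. Both PMA groups lay wholly below Control, and only PMA_ethanol versus Control passed the test, at -0.85 (SE 0.20, edgeR adjusted p = 0.001), with 0.48 (adjusted p = 0.0578) in PMA_1002 versus PMA_ethanol and -0.37 (adjusted p = 0.079) in PMA_1002 versus Control.

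The 4 genes of the spindle assembly checkpoint, which holds back anaphase until every kinetochore is attached, were all called lower in PMA_ethanol than in Control, with a median log2 fold change of -0.87. Bub1b, which encodes the checkpoint protein BubR1, had 6.19, 9.32 and 12.2 CPM in PMA_1002, 7.13, 11.4, 3.32 and 6.29 CPM in PMA_ethanol and 14.7, 11.7, 23.02, 16.95 and 14.4 CPM in Control. PMA_ethanol lay wholly below Control and PMA_1002 overlapped both. Its log2 fold change was -1.11 (SE 0.28, edgeR adjusted p = 0.00226) in PMA_ethanol versus Control, 0.30 (adjusted p = 0.423) in PMA_1002 versus PMA_ethanol and -0.81 (adjusted p = 0.0107) in PMA_1002 versus Control. In PMA_ethanol versus Control, the log2 fold change was -1.03 for the checkpoint kinase Bub1, -0.70 for Mad2l1, which inhibits Cdc20, and -0.61 for Ttk, the kinase MPS1. None of the 4 passed the test in PMA_1002 versus PMA_ethanol, where their log2 fold changes ran from 0.30 to 0.48. Ttk was the 1 member highest in PMA_ethanol library 3, at 22.4 CPM there against 13.8 to 18.02 CPM in the other PMA_ethanol libraries.

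At centromeres and kinetochores, 5 of 6 genes were called lower in PMA_ethanol than in Control, with Cenpa the exception. Cenpf, a large protein of the outer kinetochore, had 12.03, 17.3 and 21.5 CPM in PMA_1002, 8.55, 13.3, 4.15 and 6.72 CPM in PMA_ethanol and 22.2, 23.9, 25.1, 28.4 and 18.4 CPM in Control. All PMA_ethanol libraries were below Control, and the PMA_1002 range covered library 2 of PMA_ethanol and the lowest Control library. Its log2 fold change was -1.42 (SE 0.25, edgeR adjusted p = 8.35e-05) in PMA_ethanol versus Control and 0.91 (SE 0.24, edgeR adjusted p = 0.00734) in PMA_1002 versus PMA_ethanol, with -0.51 (adjusted p = 0.0514) in PMA_1002 versus Control. Cenpe, the kinetochore motor that brings chromosomes to the spindle equator, had 9.73, 12.96 and 14.7 CPM in PMA_1002, 10.3, 14.1, 6.64 and 8.44 CPM in PMA_ethanol and 15.8, 14.8, 19.6, 21.7 and 14.8 CPM in Control. Both PMA groups lay below every Control library, with log2 fold changes of -0.75 (adjusted p = 0.00205) for PMA_ethanol and -0.45 (adjusted p = 0.0305) for PMA_1002 against Control, and of 0.30 (adjusted p = 0.219) for PMA_1002 versus PMA_ethanol. Ndc80, of the complex that grips spindle microtubules, had 2.27, 3.02 and 5.42 CPM in PMA_1002, 1.75, 3.77, 2.07 and 2.43 CPM in PMA_ethanol and 6.59, 7.06, 6.98, 8.32 and 6.40 CPM in Control. Neither PMA group reached the lowest Control library, and Ndc80 had log2 fold changes of -1.41 (SE 0.27, edgeR adjusted p = 0.000172) in PMA_ethanol and -1.001 (SE 0.23, edgeR adjusted p = 0.00148) in PMA_1002, while PMA_1002 versus PMA_ethanol stood at 0.41 (adjusted p = 0.501). Its partners in that complex, Nuf2 and Spc25, had log2 fold changes of -1.02 and -0.87 in PMA_ethanol versus Control, both called.

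Cenpa, the histone H3 variant that marks centromeres, was the only member with a negative log2 fold change in PMA_1002 versus PMA_ethanol. It had 11.2, 15.2 and 18.5 CPM in PMA_1002, 20.5, 20.8, 19.9 and 15.3 CPM in PMA_ethanol and 19.4, 25.3, 23.7, 27.6 and 18.2 CPM in Control. Library 4 of PMA_ethanol stood below the other 3 of its group, and PMA_1002 overlapped PMA_ethanol and, at its top, the lowest Control library. The log2 fold change was -0.37 (SE 0.15, edgeR adjusted p = 0.067) in PMA_1002 versus PMA_ethanol, which missed the threshold but passed it under 4 of 24 alternatives, with adjusted p between 0.0284 and 0.196 over all of them. Cenpa was not called in PMA_ethanol versus Control, at -0.26 (adjusted p = 0.154), and was called lower in PMA_1002 versus Control, at -0.63 (SE 0.14, edgeR adjusted p = 0.00121).

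At the exit from mitosis, the genes of securin and separase were lower in PMA_ethanol while both genes of the ubiquitin machinery were not called. Espl1, the separase that cleaves cohesin to free the sister chromatids, had 14.9, 16.5 and 22.1 CPM in PMA_1002, 7.56, 11.2, 2.90 and 12.2 CPM in PMA_ethanol and 23.9, 26.4, 27.4, 27.7 and 22.6 CPM in Control. The 3 groups did not overlap, with PMA_ethanol lowest, PMA_1002 between and Control highest. Its log2 fold change was -1.49 (SE 0.23, edgeR adjusted p = 2.06e-05) in PMA_ethanol versus Control, 0.98 (SE 0.22, edgeR adjusted p = 0.00252) in PMA_1002 versus PMA_ethanol and -0.51 (SE 0.19, edgeR adjusted p = 0.0325) in PMA_1002 versus Control. That last call held in 14 of 24 alternatives and was lost at equal hair follicle level, at -0.41 (adjusted p = 0.0728). Pttg1, securin, which holds separase inactive, averaged 7.08 ± 1.55 CPM in PMA_1002, 5.48 ± 0.525 CPM in PMA_ethanol and 10.4 ± 0.582 CPM in Control (SD), with log2 fold changes of -0.91, 0.35 and -0.56 for PMA_ethanol against Control, PMA_1002 against PMA_ethanol and PMA_1002 against Control. The first and the last were called. Cdc20, which activates the anaphase-promoting complex, had 13.9, 19.9 and 24.8 CPM in PMA_1002, 18.5, 17.3, 12.03 and 12.4 CPM in PMA_ethanol and 15.8, 17.9, 22.6, 22.8 and 22.3 CPM in Control. Its groups overlapped, and its log2 fold changes were -0.40 (adjusted p = 0.0586), 0.34 (adjusted p = 0.137) and -0.05 (adjusted p = 0.794) in the order just given. The first missed the threshold but was called lower in 6 of 24 alternatives, among them equal hair follicle level, at -0.41 (adjusted p = 0.0109). Ube2c, the enzyme that passes ubiquitin to the targets of that complex, had 11.1, 14.5 and 19.1 CPM in PMA_1002, 13.3, 12.7, 8.71 and 13.7 CPM in PMA_ethanol and 12.3, 15.8, 14.4, 13.6 and 12.6 CPM in Control. These ranges overlapped too, with log2 fold changes of -0.16 (adjusted p = 0.38), 0.27 (adjusted p = 0.168) and 0.11 (adjusted p = 0.496). Exons of Ube2c overlap those of Tnnc2, a skeletal muscle gene on the other strand, and exons of Cdc20 overlap those of Elovl1, so the values of both are uncertain.

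All 5 mitotic kinesins, the motors of the spindle, were called lower in PMA_ethanol than in Control, with a median log2 fold change of -0.71. Kif11, which pushes the spindle poles apart, had 13.8, 16.2 and 19.6 CPM in PMA_1002, 12.8, 17.96, 5.39 and 9.73 CPM in PMA_ethanol and 17.9, 15.3, 24.7, 23.3 and 18.7 CPM in Control. PMA_ethanol library 2 lay among the Control libraries and library 3 far below them. The log2 fold change of Kif11 was -0.71 (SE 0.23, edgeR adjusted p = 0.0105) in PMA_ethanol versus Control, 0.44 (adjusted p = 0.134) in PMA_1002 versus PMA_ethanol and -0.27 (adjusted p = 0.262) in PMA_1002 versus Control. Kif23, the motor of centralspindlin, which sets up the division plane, had 26.7, 29.1 and 32.9 CPM in PMA_1002, 20.1, 20.4, 18.3 and 23.5 CPM in PMA_ethanol and 30.9, 39.3, 31.5, 34.7 and 27.7 CPM in Control. PMA_ethanol stood apart from both other groups, which overlapped each other. Kif23 changed by -0.66 (SE 0.11, edgeR adjusted p = 3.09e-05) in PMA_ethanol versus Control and by 0.51 (SE 0.10, edgeR adjusted p = 0.00106) in PMA_1002 versus PMA_ethanol, with -0.16 (adjusted p = 0.168) in PMA_1002 versus Control. Kif2c, which shortens microtubules at centromeres, had 3.65, 5.64 and 7.96 CPM in PMA_1002, 2.85, 6.53, 2.07 and 2.86 CPM in PMA_ethanol and 8.32, 10.7, 10.5, 9.56 and 9.35 CPM in Control. Both PMA groups lay below Control, with log2 fold changes of -1.30 (adjusted p = 0.000384) for PMA_ethanol and -0.81 (adjusted p = 0.00745) for PMA_1002, and PMA_1002 versus PMA_ethanol gave 0.50 (adjusted p = 0.154). Over 24 alternatives this last value ran from 0.37 to 1.04 and was called in 1 of them. That was the fit without PMA_ethanol library 2, at 1.04 (adjusted p = 0.00269). Kif4, a chromosome-bound kinesin, had the smallest called difference of a member in PMA_ethanol versus Control, with 11.4, 13.2 and 13.6 CPM in PMA_1002, 11.1, 12.9, 10.4 and 11.7 CPM in PMA_ethanol and 17.7, 12.2, 15.2, 13.4 and 13.8 CPM in Control. The groups overlapped, and the log2 fold change in PMA_ethanol versus Control, -0.31 (SE 0.12, edgeR adjusted p = 0.0293), was called in 13 of 24 alternatives, with 0.14 (adjusted p = 0.614) in PMA_1002 versus PMA_ethanol. Kif20a, a kinesin of the central spindle, had log2 fold changes of -1.40 (adjusted p = 0.000273) in PMA_ethanol versus Control, 0.60 (adjusted p = 0.093) in PMA_1002 versus PMA_ethanol and -0.80 (adjusted p = 0.00947) in PMA_1002 versus Control.

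The spindle microtubule proteins had the most negative median of the 9 role groups in PMA_ethanol versus Control, -1.15, with 5 of 5 called lower. Nusap1, which binds and bundles spindle microtubules, had the most negative log2 fold change of all members. It had 6.90, 10.5 and 12.6 CPM in PMA_1002, 4.39, 6.40, 3.73 and 5.01 CPM in PMA_ethanol and 18.4, 15.5, 13.9, 20.04 and 15.6 CPM in Control. The 3 groups did not overlap, and PMA_1002 lay between the others. Its log2 fold change was -1.71 (SE 0.21, edgeR adjusted p = 1.24e-06) in PMA_ethanol versus Control, 0.96 (SE 0.20, edgeR adjusted p = 0.00133) in PMA_1002 versus PMA_ethanol and -0.75 (SE 0.17, edgeR adjusted p = 0.00142) in PMA_1002 versus Control. Tpx2, which activates Aurora A and seeds spindle microtubules, had 13.99, 18.3 and 21.4 CPM in PMA_1002, 12.9, 18.7, 9.54 and 14.02 CPM in PMA_ethanol and 26.4, 21.01, 21.7, 23.4 and 18.9 CPM in Control. PMA_ethanol lay below Control, its library 2 only just, with log2 fold changes of -0.64 (adjusted p = 0.00233), 0.34 (adjusted p = 0.107) and -0.30 (adjusted p = 0.0898) for PMA_ethanol against Control, PMA_1002 against PMA_ethanol and PMA_1002 against Control. Prc1, which crosslinks the antiparallel microtubules of the midzone, averaged 26.1 ± 5.52 CPM in PMA_1002, 17.3 ± 3.46 CPM in PMA_ethanol and 32.2 ± 5.12 CPM in Control (SD). It was called lower in PMA_ethanol versus Control, at -0.86 (adjusted p = 0.000336), and higher in PMA_1002 versus PMA_ethanol, at 0.54 (adjusted p = 0.0196). Dlgap5, which stabilises the microtubules that reach kinetochores, had 4.56, 5.998 and 7.96 CPM in PMA_1002, 5.59, 8.15, 4.15 and 2.72 CPM in PMA_ethanol and 10.1, 11.02, 14.04, 13.6 and 11.3 CPM in Control. Both PMA groups lay below every Control library and overlapped each other, with log2 fold changes of -1.15 (SE 0.24, edgeR adjusted p = 0.000439) for PMA_ethanol and -1.005 (SE 0.21, edgeR adjusted p = 0.000724) for PMA_1002 against Control. PMA_1002 versus PMA_ethanol gave 0.15 (adjusted p = 0.677) for Dlgap5, negative without PMA_ethanol library 4. Hmmr, a spindle protein that also binds hyaluronan, had log2 fold changes of -1.25 (adjusted p = 3.53e-05), 0.51 (adjusted p = 0.0515) and -0.73 (adjusted p = 0.00191) in the same order of comparisons as Tpx2.

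The genes of chromosome structure included the markers most used for dividing cells. Mki67, which coats mitotic chromosomes and serves as a proliferation marker, had 70.8, 86.1 and 120.5 CPM in PMA_1002, 57.1, 95.8, 42.7 and 71.9 CPM in PMA_ethanol and 113, 99.04, 124, 121 and 101 CPM in Control. PMA_ethanol lay wholly below Control and PMA_1002 overlapped both. The log2 fold change was -0.71 (SE 0.19, edgeR adjusted p = 0.00396) in PMA_ethanol versus Control, 0.37 (adjusted p = 0.13) in PMA_1002 versus PMA_ethanol and -0.33 (adjusted p = 0.109) in PMA_1002 versus Control. Top2a, the topoisomerase that untangles sister DNA, had 59.1, 74.6 and 80.8 CPM in PMA_1002, 53.3, 74.3, 39.8 and 61.6 CPM in PMA_ethanol and 77.00, 67.5, 82.2, 83.7 and 66.4 CPM in Control. The groups overlapped, and Top2a was called in PMA_ethanol versus Control, at -0.37 (SE 0.14, edgeR adjusted p = 0.026), in 18 of 24 alternatives, with 0.30 (adjusted p = 0.0933) in PMA_1002 versus PMA_ethanol and -0.07 (adjusted p = 0.657) in PMA_1002 versus Control. The condensin I subunits Ncapg and Ncaph, which compact chromosomes, were called lower in PMA_ethanol versus Control, at -0.83 (adjusted p = 0.0093) and -0.97 (adjusted p = 0.00312). None of these 4 genes was called in PMA_1002 versus PMA_ethanol or in PMA_1002 versus Control.

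The chromosomal passenger and cytokinesis genes were all called lower in PMA_ethanol than in Control, and 2 of the 4 were called higher in PMA_1002 than in PMA_ethanol. Anln, the anillin scaffold of the contractile ring, had 39.8, 45.7 and 49.7 CPM in PMA_1002, 33.8, 24.1, 15.3 and 26.3 CPM in PMA_ethanol and 49.4, 41.9, 43.9, 54.2 and 47.4 CPM in Control. Every PMA_ethanol library lay below both other groups, which overlapped. Anln changed by -0.89 (SE 0.15, edgeR adjusted p = 4.75e-05) in PMA_ethanol versus Control and by 0.83 (SE 0.14, edgeR adjusted p = 0.000296) in PMA_1002 versus PMA_ethanol, the smallest adjusted p of a member there, with -0.07 (adjusted p = 0.689) in PMA_1002 versus Control. Ect2, which activates RhoA to start the cleavage furrow, had 10.2, 11.5 and 13.8 CPM in PMA_1002, 8.33, 8.67, 4.98 and 6.58 CPM in PMA_ethanol and 14.2, 12.1, 14.8, 14.3 and 14.3 CPM in Control. Again PMA_ethanol stood below both other groups, with -0.91 (SE 0.15, edgeR adjusted p = 3.74e-05) against Control and 0.66 (SE 0.14, edgeR adjusted p = 0.00194) for PMA_1002 versus PMA_ethanol. Birc5, survivin, the passenger subunit that anchors Aurora B, had 6.35, 7.70 and 8.96 CPM in PMA_1002, 6.03, 8.45, 4.15 and 6.72 CPM in PMA_ethanol and 9.54, 11.02, 11.2, 15.9 and 11.5 CPM in Control. Neither PMA group reached the lowest Control library, and Birc5 was called lower in PMA_ethanol, at -0.84 (adjusted p = 0.000871), and in PMA_1002, at -0.63 (adjusted p = 0.00408), with 0.20 (adjusted p = 0.848) between the PMA groups. Racgap1, the partner of Kif23 in centralspindlin, had -0.99 (adjusted p = 0.000187) in PMA_ethanol versus Control, 0.36 (adjusted p = 0.139) in PMA_1002 versus PMA_ethanol and -0.63 (adjusted p = 0.00406) in PMA_1002 versus Control, on the log2 scale.

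**Figure D4:**
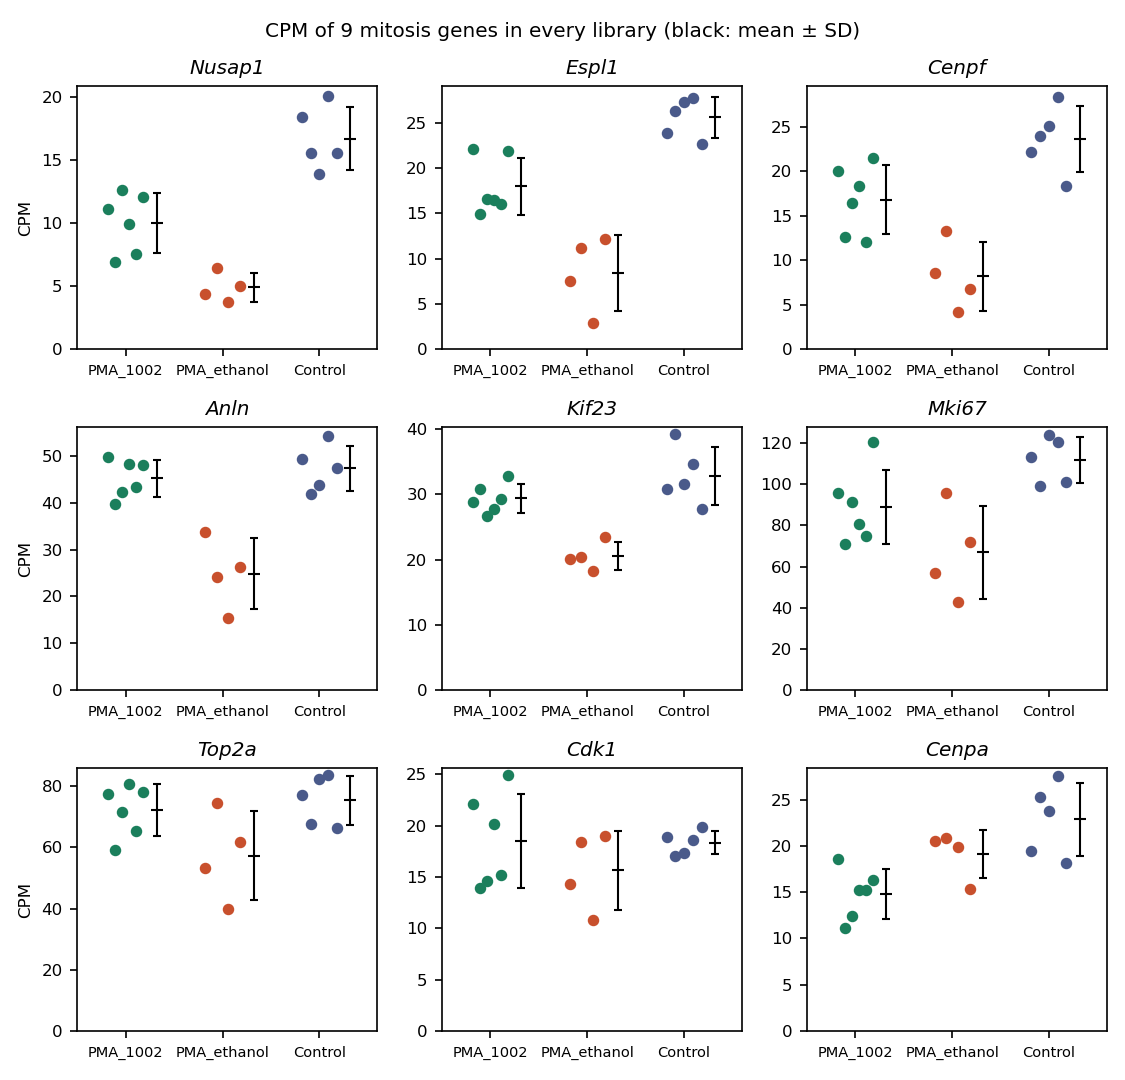
CPM (y axis, from 0) of 9 members in each library (points) with the group mean and SD (black), for PMA_1002, PMA_ethanol and Control. The groups stand apart in Nusap1 and Espl1, PMA_ethanol alone is set apart in Anln and Kif23, and the groups overlap in Cdk1 and Cenpa.

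Across the list, 6 members were called higher in PMA_1002 versus PMA_ethanol in all 24 alternatives, namely Cenpf, Espl1, Kif23, Nusap1, Anln and Ect2. Every PMA_1002 library lay above every PMA_ethanol library in 5 of the 39 members, Espl1, Kif23, Nusap1, Anln and Ect2, a share near the 11% of all tested genes. In PMA_ethanol versus Control, 32 of the 34 called members were called in all 24 alternatives, with Kif4 and Top2a the exceptions, and in PMA_1002 versus Control 11 of 18 were. The other 7 of those 18 calls held in 13 of 24 alternatives for Ccna2, 14 for Espl1, 16 for Cenpe, 18 for Mad2l1, 22 for Aurkb and 23 each for Bub1b and Kif20a. How many of all called genes held in every alternative was not computed, so these counts cannot be set against a background. Levels between genes, per kilobase of exon, spanned 0.545 CPM per kb for Ndc80 to 10.5 for Cdc20 in PMA_1002, 0.386 for Ndc80 to 8.08 for Cdc20 in PMA_ethanol and 1.09 for Ndc80 to 11.1 for Mki67 in Control. On GRCm38 with the GENCODE M21 annotation, Espl1 lies on chromosome 15 from 102296266 to 102324357, Nusap1 on chromosome 2 from 119618298 to 119651244, Anln on chromosome 9 from 22332012 to 22389188 and Mki67 on chromosome 7 from 135689784 to 135716361. In 10 of the 39 members exons overlap those of another gene, and no source used here states whether counting used the strand, so Ccna2, Plk1, Cdc20, Ube2c, Kif20a, Kif4, Nusap1, Prc1, Top2a and Ncapg are uncertain to that extent.

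Hair follicle genes varied widely within every group, and hair matrix cells divide while hair grows. The level of 19 hair shaft and root sheath genes, of which Tchh, Krt71 and Krt25 had the highest mean CPM, spanned -0.60 to 5.32 log2 CPM among PMA_1002 ears, -0.72 to 6.85 among PMA_ethanol ears and 1.40 to 7.01 among Control ears. The group means were 1.87, 3.64 and 4.05 in that order. In PMA_1002 versus PMA_ethanol, 18 of 19 hair genes had negative log2 fold changes, with a median of -2.18, and 0 were called. A fit at equal hair follicle level also adjusts for this difference between the groups. In a fit with group and this level, 37 of 39 members had a positive coefficient, with a median of 0.048 log2 units per log2 unit of hair level, and 4 were called, Bub1b, Cdc20, Kif11 and Ncapg, where 2.82% of all tested genes were called positive and 2.05% negative. The 4 calls fell to 1 without PMA_ethanol library 2 or 3 and to 2 without Control library 3 or PMA_1002 library 1. Bub1b had the largest coefficient, 0.13 (SE 0.03, edgeR adjusted p = 0.0219). At equal hair follicle level, 35 members were called lower in PMA_ethanol versus Control (against 37.2% of all tested genes), 22 higher in PMA_1002 versus PMA_ethanol (against 16.4%) and 14 lower in PMA_1002 versus Control (against 26.1%). In PMA_1002 versus PMA_ethanol the 13 added members were Ccnb1, Aurka, Plk1, Bub1b, Cdc20, Pttg1, Kif11, Kif20a, Hmmr, Top2a, Ncapg, Ncaph and Racgap1, among them Kif11, at 0.71 (adjusted p = 0.00449), Cdc20, at 0.54 (adjusted p = 0.0059), Plk1, at 0.63 (adjusted p = 0.0164) and Top2a, at 0.41 (adjusted p = 0.0171). In PMA_ethanol versus Control, Nusap1 stood at -1.69 (adjusted p = 1.34e-06) and Espl1 at -1.49 (adjusted p = 6.63e-06) at equal hair level, against -1.71 and -1.49 without it.

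The level of 12 basal keratinocyte genes, of which Krt14, Krt5 and Col17a1 had the highest mean CPM, overlapped between the groups and lay between 8.91 and 8.97 log2 CPM in PMA_1002, 8.67 and 8.96 in PMA_ethanol and 8.73 and 8.97 in Control. Their summed CPM, which Krt14 and Krt5 dominate, was 12499 to 13717 in PMA_1002, 8186 to 10645 in PMA_ethanol and 11755 to 15183 in Control. Within that list 5 genes were called higher and 4 lower in PMA_ethanol versus Control, near the shares of all tested genes (32.5% and 35.9%). In PMA_1002 versus PMA_ethanol 7 of the 12 were called higher and 3 lower, against 17% and 18% of all tested genes. The same shares of all tested genes apply to the list counts that follow. Genes listed as neutrophil markers were called higher in PMA_ethanol versus Control in 12 of 12 tested and lower in PMA_1002 versus PMA_ethanol in 12 of 12. Which cells carried these transcripts was not tested. The 12 neutrophil genes, of which S100a9, Csf3r and S100a8 had the highest mean CPM, summed to 518 to 864 CPM in PMA_1002, 1841 to 3746 CPM in PMA_ethanol and 112 to 140 CPM in Control, and of the 15 listed genes Mrgpra2a and Mrgpra2b were at 0 in every Control library. Of 9 suprabasal keratinocyte genes, 6 were lower in PMA_ethanol versus Control and 8 higher in PMA_1002 versus PMA_ethanol. Monocyte and macrophage genes were higher in PMA_ethanol versus Control in 8 of 14 and lower in 3. They summed to 1366 to 1766 CPM in PMA_1002, 1853 to 2659 CPM in PMA_ethanol and 844 to 1041 CPM in Control. Mast cell genes were lower in PMA_ethanol versus Control in 5 of 8 with 0 higher. In PMA_1002 versus PMA_ethanol 2 of 8 were higher, 25% against 17% of all tested genes. Their level was 4.64 to 4.91 log2 CPM in PMA_1002, 3.83 to 4.55 in PMA_ethanol and 4.60 to 5.39 in Control. The group means came in the same order as those of the members. Fibroblast genes were lower in PMA_ethanol versus Control in 5 of 10 and higher in 1. The group means of the fibroblast level came in the order of the members too, so this order was not particular to mast cells. Of 14 T and NK lymphocyte genes, 4 were higher and 2 lower in PMA_ethanol versus Control, shares no higher than those of all tested genes. Within PMA_ethanol, library 2 had the lowest neutrophil level (6.97 log2 CPM) and the highest member level, and library 3 the highest neutrophil level (7.77) and the lowest member level. The part of these cell types and of depth in the members' differences was not tested.

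**Figure D5:**
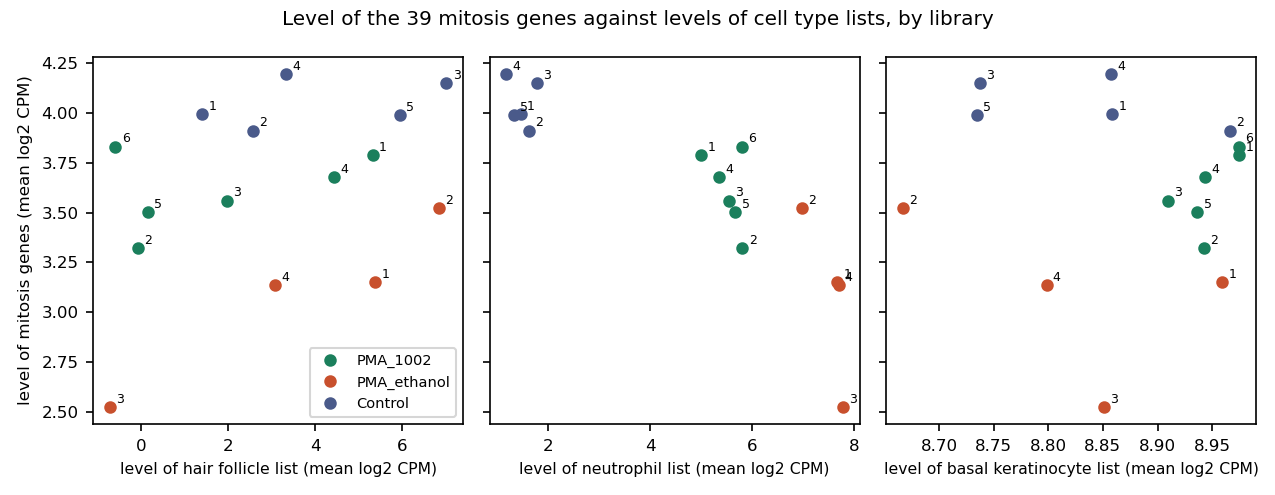
Mean log2 CPM of the 39 members (y axis) against that of the hair follicle, neutrophil and basal keratinocyte lists (x axes) in each library, with replicate numbers beside the points. The members' level is lowest in PMA_ethanol library 3, the hair level varies within every group, and the neutrophil level separates the 3 groups.

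In each list of other cell cycle genes below, the genes said to lead are those with the smallest adjusted p. Of 55 other mitosis genes, 43 were called lower and 2 higher in PMA_ethanol versus Control, beside 35.9% lower and 32.5% higher of all tested genes. The shares of all tested genes in the other comparisons are 17% higher and 18% lower in PMA_1002 versus PMA_ethanol, and 28.4% higher and 26.7% lower in PMA_1002 versus Control. The lowest adjusted p belonged to Wee1, the kinase that restrains Cdk1, at -1.41 (SE 0.15, edgeR adjusted p = 3.2e-07), Cdc25b, the phosphatase that activates it, at -1.54 (adjusted p = 3.64e-07), and Cenpi, a centromere gene, at -2.11 (adjusted p = 4.27e-07). The 2 that were higher were Zwint, a kinetochore gene, at 0.85 (adjusted p = 2.66e-07), and Bub3, a checkpoint gene, at 0.58 (adjusted p = 4.09e-06). Of these 55, 18 were called higher in PMA_1002 versus PMA_ethanol, led by Cenpi at 1.28 (adjusted p = 0.000322), Ncapd3 at 0.72 (adjusted p = 0.000477) and Wee1 at 0.73 (adjusted p = 0.000975), and 2 were lower, Zwint at -0.47 (adjusted p = 0.00046) and Cenpm at -0.75 (adjusted p = 0.0372). Against Control, 29 were lower in PMA_1002, led by Mad1l1 at -0.65, Cdc25b at -0.81 and Wee1 at -0.68, and 3 were higher, Bub3 at 0.46, Zwint at 0.39 and Trip13 at 0.55.

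Of 22 factors that transcribe or repress mitosis genes, 9 were called higher and 12 lower in PMA_ethanol versus Control, beside 32.5% higher and 35.9% lower of all tested genes, which were split in direction too. Foxm1, the forkhead activator of these promoters, averaged 12.4 ± 2.59 CPM in PMA_1002, 12.3 ± 4.11 CPM in PMA_ethanol and 18.02 ± 2.76 CPM in Control (SD). It was lower than Control in both, at -0.51 (adjusted p = 0.0328) for PMA_ethanol and -0.55 (adjusted p = 0.0153) for PMA_1002, and PMA_1002 versus PMA_ethanol gave -0.04 (adjusted p = 0.897). Mybl2, the B-MYB partner of MuvB, had -0.74 (adjusted p = 0.018) in PMA_ethanol versus Control and 0.22 (adjusted p = 0.542) in PMA_1002 versus PMA_ethanol. The strongest results in PMA_ethanol versus Control were the higher E2f4 (1.05), Nfya (1.01), which encodes an NF-Y subunit, and the repressor E2f7 (2.36), and the lower Tfdp2 (-1.96), Rbl2 (-1.39) and Rbl1 (-1.42). Of these factors, 3 were lower in PMA_1002 versus PMA_ethanol, Nfya at -0.39, E2f7 at -1.09 and E2f4 at -0.20, and 6 were higher, led by Tfdp2 at 0.85, Rbl1 at 0.92 and Lin9 at 0.73. Against Control, 8 of the 22 were higher in PMA_1002, led by E2f4 at 0.85, Tfdp1 at 0.56 and Nfya at 0.62, and 8 lower, led by Tfdp2 at -1.11, Rbl2 at -0.93 and E2f2 at -1.17.

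Of 17 tested inhibitors of the cycle and p53 targets, 10 were called higher and 6 lower in PMA_ethanol versus Control, again beside 32.5% and 35.9% of all tested genes. Cdkn1a, the p21 inhibitor of cyclin-dependent kinases, averaged 388 ± 36.97 CPM in PMA_1002, 741 ± 169.5 CPM in PMA_ethanol and 193 ± 8.39 CPM in Control (SD), with log2 fold changes of 1.94 (SE 0.12, edgeR adjusted p = 2.85e-10) in PMA_ethanol versus Control and -0.93 (SE 0.11, edgeR adjusted p = 6.86e-06) in PMA_1002 versus PMA_ethanol. Gadd45b and Btg2 were higher as well, at 2.07 and 2.77, while Sesn1, Cdkn1b, the p27 inhibitor, and Cdkn2c were lower, at -2.80, -1.76 and -1.77. Between the PMA groups, 9 were lower in PMA_1002 than in PMA_ethanol, led by Btg1 at -0.87, Sesn2 at -1.52 and Btg2 at -1.41, and 4 higher, led by Sesn1 at 0.99, Cdkn2c at 0.91 and Cdkn1b at 0.52. Against Control, 9 were higher in PMA_1002, led by Gadd45b at 1.54, Cdkn1a at 1.01 and Cdkn2d at 0.83, and 6 lower, led by Sesn1 at -1.81, Ccng2 at -1.54 and Cdkn1b at -1.25.

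Most DNA replication genes were lower in PMA_ethanol than in Control as well. Of 32 DNA replication genes, 26 were called lower in PMA_ethanol versus Control, beside 35.9% of all tested genes, led by Prim1 at -1.40, Lig1 at -1.30 and Mcm6 at -0.74, and 2 were higher. These 2 were Pcna, the sliding clamp of DNA polymerases, at 0.58 (SE 0.08, edgeR adjusted p = 7.13e-06), and Rrm2, a subunit of ribonucleotide reductase, at 0.88 (SE 0.14, edgeR adjusted p = 1.95e-05). Between the PMA groups, 14 replication genes were higher in PMA_1002 than in PMA_ethanol, led by Mcm6 at 0.61, Prim1 at 0.70 and Mcm3 at 0.49, and Rrm2 was lower, at -0.42 (adjusted p = 0.0171), with Pcna at -0.16 (adjusted p = 0.119). Against Control, 15 were lower in PMA_1002, led by Prim1 at -0.70, Lig1 at -0.74 and Pola1 at -0.40, and 5 higher, led by Orc1 at 1.30, Pcna at 0.42 and Rrm2 at 0.46. Of 9 cyclins and kinases of G1 and S phase, 2 were higher in PMA_ethanol versus Control, Cdk6 at 1.45 and Cdk4 at 0.25, and 3 lower, Cdk2 at -0.75, Ccne2 at -1.09 and Ccnd2 at -0.38, shares no higher than the 32.5% and 35.9% of all tested genes. Ccnd1, cyclin D1, which drives cells out of G1, averaged 138 ± 20.7 CPM in PMA_1002, 88.2 ± 14.05 CPM in PMA_ethanol and 109 ± 19.3 CPM in Control (SD). It was higher in PMA_1002 versus PMA_ethanol, at 0.63 (SE 0.14, edgeR adjusted p = 0.00241), and in PMA_1002 versus Control, at 0.34 (adjusted p = 0.0362), and stood at -0.29 (adjusted p = 0.0848) in PMA_ethanol versus Control. In PMA_1002 versus PMA_ethanol, Ccne2 at 0.97 and Cdk2 at 0.41 were also among the 4 higher, and Cdk6 at -0.76 was lower, while in PMA_1002 versus Control Cdk6 at 0.69 was higher and Cdk2 at -0.35 lower.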

How the data were processed

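RNA from 15 ear libraries was sequenced, and the authors deposited 1 table of raw read counts per gene and library, with Ensembl gene identifiers. The submitters' processing notes name the aligner STAR (2.5), the counter HTSeq, the quality tools FastQC (0.11.5) and MultiQC (0.8), and GRCm38 as the genome; whether counting used the strand is not stated there. Reads that named no gene, 28.5% to 32.8% of each table, were left out. Identifiers were matched to symbols with GENCODE M21. Groups came from the sample titles.

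From the deposited counts, edgeR 4.0.16 in R 4.3.3 was run with TMM scaling, filterByExpr by group and a robust quasi-likelihood fit of all 15 libraries, with Benjamini-Hochberg adjustment over 14991 genes, a threshold of 0.05 and no minimum fold. Standard errors were derived from the quasi-likelihood F statistic, and p-values of genes with less spread than counting noise were raised by edgeR's Poisson bound. CPM used TMM-scaled library sizes, and list levels are means of log2 CPM with a prior count of 2. Hair follicle level was the centred mean log2 CPM of 19 of 20 listed hair genes. The fit was tested on simulated data. Replicates differed beyond counting noise in all 31 pairs within groups (chi-square per degree of freedom 2.93 to 27.0), so none was counted as a duplicate.

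Alternatives were the hair covariate, other scalings, DESeq2 1.42.0, no filter on low counts, fits of 2 groups only, a replicate block and leaving out each library; a fit with no Poisson bound was chosen after seeing the data. Values by library (for PMA_1002 the lowest, median and highest) were given for 13 members set by name and for the 3 most positive and 3 most negative members of each comparison, and for 6 further called members chosen after their values were seen. From each other cell cycle list, up to 3 called genes per direction with the smallest adjusted p were named, and Foxm1, Mybl2, Ccnd1, Cdkn1a, Pcna and Rrm2 in any case. The members and lists were chosen with earlier results of these data known. No source used here says what the replicate numbers mark, so the main fit did not pair samples by them. Same-numbered libraries of different groups correlated at -0.53 to 0.58 and other pairs at -0.61 to 0.69. These overlapping ranges cannot tell whether the numbers mark pairs.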

Additional observations from a re-analysis of the deposited data

Results flagged for a closer look

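Of 141 groups of values examined, 5 held a library whose distance to the nearest of the others took up most of the group's range; chance gives about 1 in 20. Cenpa had 15.3 CPM in PMA_ethanol library 4, the lowest of its group, with the next at 19.9 CPM. The neutrophil level was 6.97 log2 CPM in PMA_ethanol library 2, with the next lowest at 7.67. Ccna2 had 19.3 CPM in Control library 2, with the next lowest at 28.1 CPM. Ect2 had 12.1 CPM in the same library, with the next lowest at 14.2 CPM. Ncaph had 12.8 CPM in Control library 3, the highest of its group, with the next at 10.7 CPM.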

How the results depend on the processing

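In PMA_ethanol versus Control, the 34 members called lower became 32 to 35 when leaving out 1 library each, with a median log2 fold change of -1.01 to -0.76. Upper-quartile scaling added 5 calls and lost 0, and library size only added 4 and lost 0. In PMA_1002 versus PMA_ethanol, the 9 called higher became 22 with the hair follicle level as covariate, 15 with upper-quartile scaling, 19 with library size only and 8 to 19 when leaving out 1 library, with medians of 0.31 to 0.60. The count called lower there was 1, Cenpa, with RLE size factors and with DESeq2, and 0 to 1 when leaving out 1 library. Its adjusted p was 0.0439 with RLE, 0.0386 with DESeq2, 0.0310 without PMA_ethanol library 4 and 0.0284 without PMA_1002 library 1. In PMA_1002 versus Control, the 18 called lower became 31 with upper-quartile scaling and 31 with library size only, and 14 to 22 when leaving out 1 library, with medians of -0.50 to -0.38. The count of called hair follicle coefficients was 1 to 6 when leaving out 1 library. Upper-quartile scaling moved the median log2 fold change of all tested genes in PMA_ethanol versus Control to -0.30, against -0.07. With a replicate block, 33 members were lower in PMA_ethanol versus Control, 7 higher in PMA_1002 versus PMA_ethanol and 16 lower in PMA_1002 versus Control. All tested genes called in those directions with the block numbered 5158, 1890 and 3699 of 14991. Leaving out 1 library, they numbered 5049 to 5400, 1989 to 2575 and 3532 to 4169, of 14815 to 15390. Same-numbered libraries correlated above 0.1 in 2 of 13 pairs. Signs turned in PMA_1002 versus PMA_ethanol for Dlgap5 (-0.074 without PMA_ethanol library 4, up to 0.51 leaving out others). In PMA_1002 versus Control they turned with the hair covariate for Cdc20 (0.14), Top2a (0.035) and Anln (0.0050), with upper-quartile scaling for Cdk1 (-0.15), Aurka (-0.11) and Ube2c (-0.044), and with library size only for Cdk1 (-0.11), Aurka (-0.066) and Ube2c (-0.0040). Cdk1 also turned with the 2 groups only (-0.0050) and with the replicate block (-0.12). Leaving out 1 library gave -0.074 to 0.075 for Cdk1, -0.00062 to 0.103 for Aurka and -0.13 to 0.030 for Cdc20. The cause was not tested. The 784 member reads of PMA_ethanol library 3 limit its values.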
